A study of Mus musculus with 9 samples.

Results

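The genes described here make cholesterol or keep its level in balance: 28 were named by symbol, from the enzymes that turn acetyl-CoA into sterol to the proteins that sense sterol, move it and export it. Values came from Affymetrix arrays of mature 3T3-L1 adipocytes, a mouse preadipocyte line turned into fat cells in culture. A single-symbol probe set was found for 26 of the 28, among 18193 genes with one, and all 26 passed the filter on low signal that left 12735 genes for testing. Acat2, a cytosolic acetyl-CoA acetyltransferase, and Soat1, which esterifies cholesterol, had no such probe set and are named without array values.

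Cholesterol is built in 3 stretches, since acetyl-CoA is first made into the isoprenoid farnesyl diphosphate through mevalonate, farnesyl diphosphate is then joined into squalene and closed into lanosterol, and lanosterol is finally trimmed, reduced and rearranged to cholesterol. Cells adjust the pathway through SREBP-2, the product of Srebf2. Scap carries this membrane-bound factor to the Golgi for cleavage when sterol is low, Insig1 and Insig2 hold it back in the endoplasmic reticulum when sterol is high, and the freed factor switches on most of the enzyme genes together with NF-Y, which binds CCAAT boxes. In the opposite state oxysterols activate the liver X receptors (LXR), which switch on Abca1, Abcg1 and Mylip. Adipocytes hold a large store of unesterified cholesterol, much of it at the lipid droplet.

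The groups were hairpin 2 and hairpin 1, both lentiviral short hairpins against Ebf1 (an early B cell factor expressed in fat cells), and a scrambled hairpin, with 3 arrays each. All groups shared 3 to 4 rounds of infection and at least 8 days in puromycin at 5 µg/ml. Cells without any virus are not among the samples, and each arm is a transduced pool of a cell line in which the hairpins lower Ebf1 without removing it. The titles number repeats but do not say that they were separate cultures, so a p-value here measures array-to-array spread, part or all of which may be technical.

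Ebf1 signal was 8.90, 8.72 and 9.20 on the log2 scale with hairpin 2 and 9.32, 9.54 and 9.45 with hairpin 1, against 10.12, 10.15 and 10.31 with scrambled. On this probe set every hairpin 2 array lay below every hairpin 1 array, and every hairpin array lay below every scrambled array. The difference from scrambled was -1.25 log2 units with hairpin 2 and -0.75 with hairpin 1 (SE 0.113 for each). Adjusted p-values throughout are from limma, with Benjamini-Hochberg adjustment over the 12735 genes, and those for Ebf1 were 2.98e-07 and 0.000102. The 3 other Ebf1 probe sets past the filter were also lower, by differences of -1.62 to -1.07 with hairpin 2 and -1.10 to -0.46 with hairpin 1. Between the hairpins they differed by -0.61, -0.52 and -0.27, and on the last of these the hairpin arrays overlapped (adjusted p = 0.278 over the probe sets tested). A member rose or fell where its adjusted p over the genes was below 0.05.

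The promoters were read for CCAAT because NF-Y works beside SREBP-2 on these genes. RefSeq windows of GRCm38.p6, 250 bases before to 50 after each gene start, were used for 23 of the 28 members. No window was used for Fdps, Fdft1, Sqle, Abcg1 and Stard4. The chromosome of Stard4 was left out for the members but kept in the shares over all genes. Stretches of 100 bases before the start follow for 5 members that rose with both hairpins, for Mylip, which has the box but was not called, and for Scap, which has none and fell with hairpin 2. Capitals mark CCAAT, or ATTGG where the box lies on the other strand, and in Hmgcs1 also the letters CACNCCAC of a sterol regulatory element. Each stretch was picked as the 100 bases with the most capitals among the 250 before the start, so it is not a typical stretch. Scap had no match, and its middle 100 bases are shown. Lss, Tm7sf2 and Srebf2, which also rose with both hairpins, held 1 box each in their windows and are not shown. Idi1 and Ebp, with 2 boxes each, and Msmo1, with 3, rose with both as well and are not shown either, so the stretches are examples. The stretches lie at chr13:119690152-119690251 (+) for Hmgcs1, chr5:114444142-114444241 (+) for Mvk, chr8:122443434-122443533 (-) for Mvd, chrX:72918409-72918508 (+) for Nsdhl, chr1:169969211-169969310 (-) for Hsd17b7, chr13:45389600-45389699 (+) for Mylip and chr9:110333113-110333212 (+) for Scap, each written 5′ to 3′ on the gene's strand.
Hmgcs1: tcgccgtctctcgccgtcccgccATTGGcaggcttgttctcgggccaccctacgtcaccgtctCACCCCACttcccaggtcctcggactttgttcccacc
Mvk: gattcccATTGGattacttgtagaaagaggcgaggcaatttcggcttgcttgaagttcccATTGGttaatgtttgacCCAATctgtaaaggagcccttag
Mvd: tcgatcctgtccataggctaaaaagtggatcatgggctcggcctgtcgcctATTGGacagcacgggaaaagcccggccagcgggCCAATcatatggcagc
Nsdhl: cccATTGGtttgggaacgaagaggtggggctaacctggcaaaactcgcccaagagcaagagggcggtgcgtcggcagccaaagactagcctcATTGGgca
Hsd17b7: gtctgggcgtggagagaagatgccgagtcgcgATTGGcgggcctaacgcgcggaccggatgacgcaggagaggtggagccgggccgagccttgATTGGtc
Mylip: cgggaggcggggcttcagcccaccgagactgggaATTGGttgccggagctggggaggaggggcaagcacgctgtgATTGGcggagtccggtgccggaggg
Scap: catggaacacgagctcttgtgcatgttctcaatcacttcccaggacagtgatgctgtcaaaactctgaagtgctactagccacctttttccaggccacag

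CCAAT stood on either strand in the windows of 20 of the 23 members, or 87.0%, against 42.8% of the 10231 genes on the array's tested list that had a window and 41.1% of all 27025 genes with one. Of the 14 members that rose with both hairpins, 11 had a window and all 11 held the box. Of the other 12 tested members, 10 had a window that was read and 8 of these held it, Abca1 and Scap being the exceptions. For Stard4 and Abcg1 no window was read. The box was thus common among the members with and without that call. The sterol element TCACNCCAC was found in Hmgcs1 alone among the members (4.35%, against 1.44% of all genes), and its shorter core CACNCCAC, which lies inside it, in Hmgcs1, Insig1 and Acat2 (13.0%, against 7.12%). The Ebf1 palindrome, TCCC and GGGA separated by any 2 bases, was found in 0 member windows and 1.06% of all genes. A strict form of the LXR element was found in 0 member windows and 4 of all 27025 genes (0.0148%). A looser form was found in 0 member windows and 8 of all genes (0.0296%). These motifs are too rare for 0 among 23 members to set the members apart from other genes. The LXR counts do not show that Abca1 or Mylip lacks such an element. Both strands were searched, and a match or its lack describes only the letters of these windows.

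Most of the pathway was higher with either hairpin. With hairpin 2, 15 of 26 members rose and 1 fell (Scap), where 21.5% of all genes tested rose and 13.3% fell. With hairpin 1, 17 of 26 members rose and 2 fell (Stard4 and Abca1), where 23.7% of all genes tested rose and 9.23% fell. The median member difference from scrambled was 0.20 log2 units with hairpin 2 and 0.28 with hairpin 1, beside 0.02 and 0.07 over all genes tested. The same 14 members rose with both, namely Hmgcs1, Mvk, Mvd, Idi1, Fdps, Fdft1, Sqle, Lss, Tm7sf2, Msmo1, Nsdhl, Hsd17b7, Ebp and Srebf2, and both comparisons share the scrambled arrays. The counts of lower members changed without single arrays: 2 fell with hairpin 2 without its second repeat or the first or second of hairpin 1, and with any 1 array left out 1 fell with hairpin 1, except without the first repeat of hairpin 1, where 3 did. Lbr, Sc5d and Dhcr7 were called higher with hairpin 1 and Stard4 with hairpin 2, while Pmvk, Cyp51, Insig1, Insig2, Abcg1 and Mylip were called with neither. All 3 hairpin 2 arrays lay above all 3 scrambled arrays for 18 of the 26 members (30.1% of all genes tested), and all 3 hairpin 1 arrays for 20 of 26 (30.5%).

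The sizes were modest, and the largest differences were under 1 log2 unit. Scaling mattered for the background with hairpin 1, where higher genes were 72.0% of all calls, 59.1% after a further quantile normalization and 55.8% with equal array medians. The members called higher with hairpin 1 were then 15 and 13, in place of 17.

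**Figure D1:**
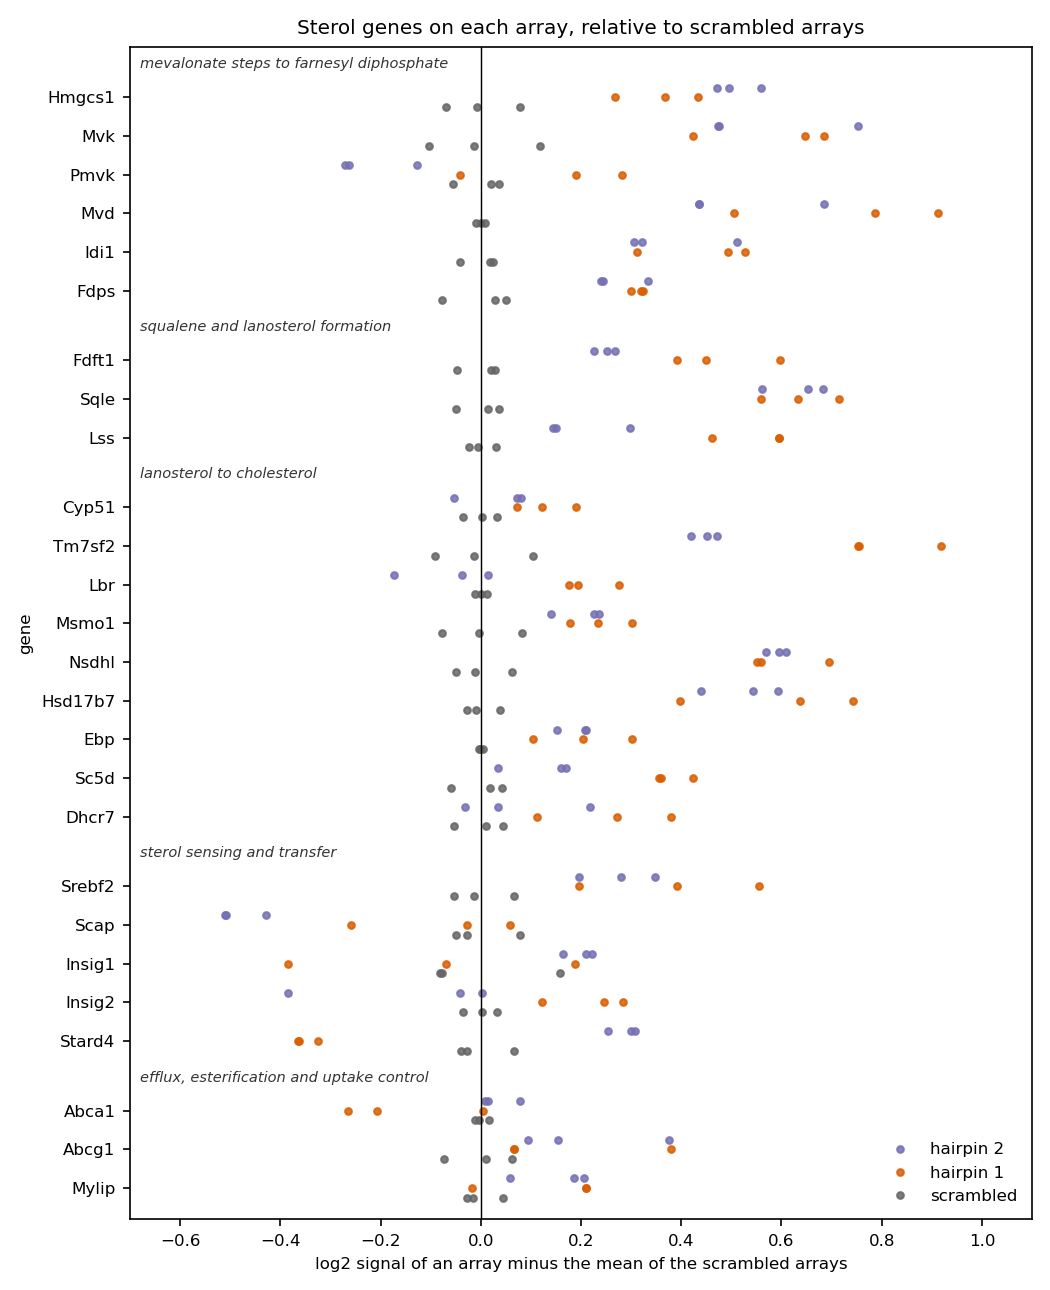
Signal of each measured member on each of the 9 arrays, as log2 units above or below that gene's scrambled mean, grouped by role along the pathway; each point is 1 array, with hairpin 2 above hairpin 1 and scrambled lowest in each row. The hairpin points of Sqle, Nsdhl, Mvd and Tm7sf2 lie clear of the scrambled points, and those of Stard4 lie on opposite sides of them.

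Markers of other cell states moved in the same arrays. Of 9 tested preadipocyte and fibroblast markers, 8 rose and 1 (Dlk1) fell with hairpin 2, and 9 rose with hairpin 1. The log2 of their summed signal was 15.97 to 16.04 with hairpin 2 and 15.77 to 15.86 with hairpin 1, against 15.06 to 15.18 with scrambled. Of 9 tested markers of dividing cells, 7 rose with hairpin 2 and 8 with hairpin 1, with summed levels of 11.19 to 11.27, 11.22 to 11.49 and, with scrambled, 10.61 to 10.69. Of 7 tested adipocyte markers, 2 fell with hairpin 2 (Pparg and Cidec) and 1 with hairpin 1 (Pparg). The log2 of their summed signal was 16.77 to 16.78 with hairpin 2 and 16.80 to 16.81 with hairpin 1, against 16.82 to 16.85 with scrambled, so the groups did not overlap. Adipoq, Fabp4 and Lpl, which averaged 14.81, 14.89 and 14.72 near the array's ceiling, carried most of this sum, where differences are compressed. The macrophage markers Ptprc, Adgre1 and Itgam averaged 4.84, 5.35 and 4.83, below the filter of 5.72. Of 6 tested macrophage and leukocyte markers, hairpin 2 gave 1 higher (Cd68) and 2 lower (Laptm5 and Cd74), and hairpin 1 gave the same 2 lower. Cd68 differed by 1.18 with hairpin 2 (adjusted p = 3.3e-07) and -0.02 with hairpin 1 (adjusted p = 0.928). Laptm5 differed by -1.82 and -1.22 (adjusted p = 6.37e-05 and 0.00261), and Cd74 by -0.60 and -0.41. Summed levels were 10.28 to 10.68, 10.55 to 10.73 and, with scrambled, 10.90 to 11.47. Laptm5, at 10.78, 10.86 and 9.81, had the highest scrambled signal in that sum. The part of these cell states in the sterol genes was not tested, and in such bulk RNA a shift in the mix of cells and a shift in RNA per cell cannot be told apart.

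In the mevalonate stretch, 5 of 6 measured enzymes rose with each hairpin, and the exception both times was Pmvk. The group's median difference was 0.44 log2 units with hairpin 2 and 0.40 with hairpin 1. Hmgcs1, the cytosolic HMG-CoA synthase that feeds the pathway, read 13.87, 13.85 and 13.93 with hairpin 2 and 13.81, 13.64 and 13.74 with hairpin 1, against 13.45, 13.31 and 13.37 with scrambled. All hairpin arrays lay above the scrambled ones. It rose 1.42-fold with hairpin 2 (log2 difference 0.51, SE 0.0485, adjusted p = 5.57e-07) and 1.28-fold with hairpin 1 (0.36, adjusted p = 4.04e-05). Over its 5 tested probe sets the differences ran from 0.27 to 0.89 with hairpin 2 and -0.05 to 0.55 with hairpin 1. Adjusted over the probe sets tested, the 0.27 was not called (adjusted p = 0.0681). With hairpin 1, differences of -0.05, 0.18 and 0.41 were not called (adjusted p = 0.761, 0.0548 and 0.17).

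Mvd, which decarboxylates mevalonate diphosphate to isopentenyl diphosphate, read 10.37, 10.62 and 10.37 with hairpin 2 and 10.44, 10.84 and 10.72 with hairpin 1, against 9.92, 9.93 and 9.94 with scrambled. The scrambled arrays were nearly identical and the hairpin arrays all stood above them. The rise was 1.43-fold with hairpin 2 (adjusted p = 0.000831) and 1.66-fold with hairpin 1 (SE 0.102 log2 units, adjusted p = 5.03e-05). Mvk, mevalonate kinase, was up 0.57 log2 units under hairpin 2 (adjusted p = 0.000209) and 0.58 under hairpin 1 (adjusted p = 0.000232).

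Fdps makes farnesyl diphosphate and stands where the sterol and protein prenylation routes part. It read 13.75, 13.75 and 13.84 with hairpin 2 and 13.81, 13.83 and 13.83 with hairpin 1, against 13.43, 13.54 and 13.56 with scrambled. The differences, 0.27 with hairpin 2 (adjusted p = 8.68e-05) and 0.31 with hairpin 1 (adjusted p = 3.27e-05), were small, and the hairpin arrays all lay above the scrambled ones. Averaged over its probe sets, Fdps differed by 0.17 with hairpin 2, not called (adjusted p = 0.0623), and by 0.19 with hairpin 1 (adjusted p = 0.0448). The other of its probe sets averaged 4.54 and did not pass the filter. Idi1, the isopentenyl diphosphate isomerase, rose by 0.38 with hairpin 2 (adjusted p = 0.00068) and 0.44 with hairpin 1 (adjusted p = 0.000242).

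Idi1 depended on the probe set. Its other tested probe set read 11.18, 10.79 and 11.19 with hairpin 2 and 11.41, 8.43 and 9.25 with hairpin 1, against 10.46, 11.23 and 10.57 with scrambled. The hairpin 1 arrays of that probe set spanned almost 3 log2 units, and its differences of 0.30 and, with hairpin 1, -1.06 did not pass the test (adjusted p = 0.729 and 0.149 over the probe sets tested). When both were averaged, neither comparison was called, at 0.34 with hairpin 2 (adjusted p = 0.402) and -0.31 with hairpin 1 (adjusted p = 0.45).

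Pmvk, phosphomevalonate kinase, was the step that did not rise. It read 10.71, 10.85 and 10.70 with hairpin 2 and 10.93, 11.26 and 11.16 with hairpin 1, against 11.00, 10.92 and 11.01 with scrambled. The hairpin 2 arrays all lay below the scrambled ones and the hairpin 1 arrays overlapped them. Differences of -0.22 with hairpin 2 (adjusted p = 0.0573) and 0.14 with hairpin 1 (adjusted p = 0.222) missed the threshold. Leaving out the second repeat of hairpin 2 or the first or second repeat of hairpin 1 brought the hairpin 2 comparison past it (adjusted p = 0.0107 to 0.0444), and leaving out the first repeat of hairpin 1 brought the hairpin 1 comparison past it (adjusted p = 0.0137).

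All 3 enzymes of squalene and lanosterol formation rose with each hairpin. The median difference was 0.25 log2 units with hairpin 2 and 0.55 with hairpin 1. Sqle, the squalene epoxidase and a rate-limiting step of the later pathway, read 12.86, 12.77 and 12.89 with hairpin 2 and 12.76, 12.92 and 12.84 with hairpin 1, against 12.15, 12.22 and 12.24 with scrambled. The hairpins overlapped each other and both stood clear of scrambled. Sqle rose 1.55-fold with each (SE 0.055 log2 units, adjusted p = 1.91e-07 with hairpin 2 and 3.72e-07 with hairpin 1).

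Fdft1, squalene synthase, commits farnesyl diphosphate to sterol. It read 12.87, 12.85 and 12.89 with hairpin 2 and 13.07, 13.22 and 13.01 with hairpin 1, against 12.64, 12.57 and 12.65 with scrambled. The 3 groups did not overlap, with hairpin 1 highest and scrambled lowest. Fdft1 rose by 0.25 with hairpin 2 (adjusted p = 0.00183) and by 0.48 with hairpin 1 (adjusted p = 6.25e-06), and on its other tested probe set by 0.60 and 0.90.

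Lss, lanosterol synthase, closes the sterol rings. It read 11.05, 11.20 and 11.04 with hairpin 2 and 11.36, 11.49 and 11.50 with hairpin 1, against 10.88, 10.89 and 10.93 with scrambled. The order of the groups was that of Fdft1, again with no overlap. The rise was 0.20 with hairpin 2 (adjusted p = 0.0412) and 0.55 with hairpin 1 (adjusted p = 2.42e-05). The hairpin 2 call was lost when any 1 array was left out other than the first and second repeats of hairpin 1 (adjusted p = 0.0509 to 0.175), and also with no filter, equal array medians or no variance trend (adjusted p = 0.0509, 0.0501 and 0.0541). Averaged over its probe sets, the hairpin 1 difference was 0.33 (adjusted p = 0.00424).

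The enzymes from lanosterol to cholesterol rose in 5 of 9 cases with hairpin 2 and 8 of 9 with hairpin 1, and Cyp51 was called with neither. The median difference was 0.19 log2 units with hairpin 2 and 0.25 with hairpin 1. Tm7sf2, one of the pair of sterol reductases that act after Cyp51, read 10.90, 10.95 and 10.93 with hairpin 2 and 11.23, 11.40 and 11.23 with hairpin 1, against 10.39, 10.47 and 10.58 with scrambled. The groups were fully separated. Tm7sf2 rose 1.36-fold with hairpin 2 (0.45, adjusted p = 0.000233) and 1.75-fold with hairpin 1 (0.81, SE 0.0765, adjusted p = 9.5e-07).

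Lbr, the other of this pair and also the lamin B receptor of the nuclear envelope, read 10.65, 10.52 and 10.70 with hairpin 2 and 10.97, 10.87 and 10.88 with hairpin 1, against 10.70, 10.69 and 10.68 with scrambled. Hairpin 2 overlapped scrambled and hairpin 1 lay above both. The differences were -0.07 with hairpin 2 (adjusted p = 0.557) and 0.21 with hairpin 1 (adjusted p = 0.0355). The hairpin 1 call was lost without any 1 scrambled array, the third repeat of hairpin 1 or the first of hairpin 2 (adjusted p = 0.051 to 0.103). It was also lost after quantile normalization (0.14, adjusted p = 0.165) and with equal array medians (0.13, adjusted p = 0.191).

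Nsdhl and Hsd17b7 belong, with Msmo1, to the complex that takes methyl groups off the sterol ring. Nsdhl read 12.89, 12.91 and 12.93 with hairpin 2 and 12.87, 13.01 and 12.88 with hairpin 1, against 12.27, 12.31 and 12.38 with scrambled. The hairpin arrays overlapped each other and all lay above scrambled, and Nsdhl rose 1.51-fold with hairpin 2 (0.59, adjusted p = 2.54e-07) and 1.52-fold with hairpin 1 (0.60, adjusted p = 4.12e-07). Hsd17b7 rose by 0.52 with hairpin 2 (adjusted p = 0.000136) and 0.59 with hairpin 1 (adjusted p = 6.34e-05), or by 0.31 and 0.23 when its probe sets were averaged. Among the averaged probe sets, 1 had a mean of 5.47, below the filter. Its other tested probe sets averaged 9.72 and 9.23. With hairpin 2 they gave 0.15 and 0.46 (adjusted p = 0.231 and 0.00237 over the probe sets tested). With hairpin 1 they gave 0.20 and 0.07, and neither was called (adjusted p = 0.11 and 0.664).

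Msmo1, the methylsterol oxidase, read 13.85, 13.76 and 13.86 with hairpin 2 and 13.92, 13.80 and 13.85 with hairpin 1, against 13.62, 13.70 and 13.54 with scrambled. It lay near the top of the array's range, and the hairpin arrays stood above the scrambled ones by 0.20 with hairpin 2 (adjusted p = 0.00293) and 0.24 with hairpin 1 (adjusted p = 0.00102). With equal array medians neither was called (0.16 for each, adjusted p = 0.0798 and 0.0933), while averaging its probe sets gave a hairpin 2 difference of 0.059 (adjusted p = 0.514).

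Sc5d, the sterol desaturase, read 13.06, 12.94 and 13.07 with hairpin 2 and 13.26, 13.26 and 13.33 with hairpin 1, against 12.92, 12.84 and 12.95 with scrambled. Hairpin 1 stood above both other groups and hairpin 2 touched the scrambled range. Sc5d rose by 0.38 with hairpin 1 (adjusted p = 2.56e-05), while the 0.12 of hairpin 2 missed the threshold (adjusted p = 0.0707) and passed it without the second repeat of hairpin 2 (adjusted p = 0.0231). Another of its probe sets gave 0.48 with hairpin 2 and 0.53 with hairpin 1, both past the threshold over probe sets (adjusted p = 0.00059 and 0.00038). A further one gave -0.04 with hairpin 2 and 0.15 with hairpin 1, and neither was called (adjusted p = 0.793 and 0.298).

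Ebp, the sterol isomerase, rose by 0.19 with hairpin 2 (adjusted p = 0.0184) and 0.20 with hairpin 1 (adjusted p = 0.0139). Leaving out the first or second hairpin 2 array, or any 1 scrambled array, removed the hairpin 2 call (adjusted p = 0.0519 to 0.0652), and leaving out the second hairpin 1 array removed the hairpin 1 call (adjusted p = 0.0538). Dhcr7, the reductase that makes cholesterol itself, differed by 0.07 with hairpin 2 (adjusted p = 0.557) and rose by 0.25 with hairpin 1 (adjusted p = 0.0284), a call lost without the second or the third repeat of hairpin 1 or any 1 scrambled array (adjusted p = 0.0537 to 0.143). That call was also lost after quantile normalization (0.19, adjusted p = 0.0726) and with equal array medians (0.17, adjusted p = 0.101), as was that of Ebp with hairpin 1 under equal array medians (0.12, adjusted p = 0.0789) and with hairpin 2 without the variance trend (adjusted p = 0.0544). Cyp51, the lanosterol demethylase, differed by 0.03 with hairpin 2 (adjusted p = 0.739) and 0.13 with hairpin 1 (adjusted p = 0.116).

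**Figure D2:**
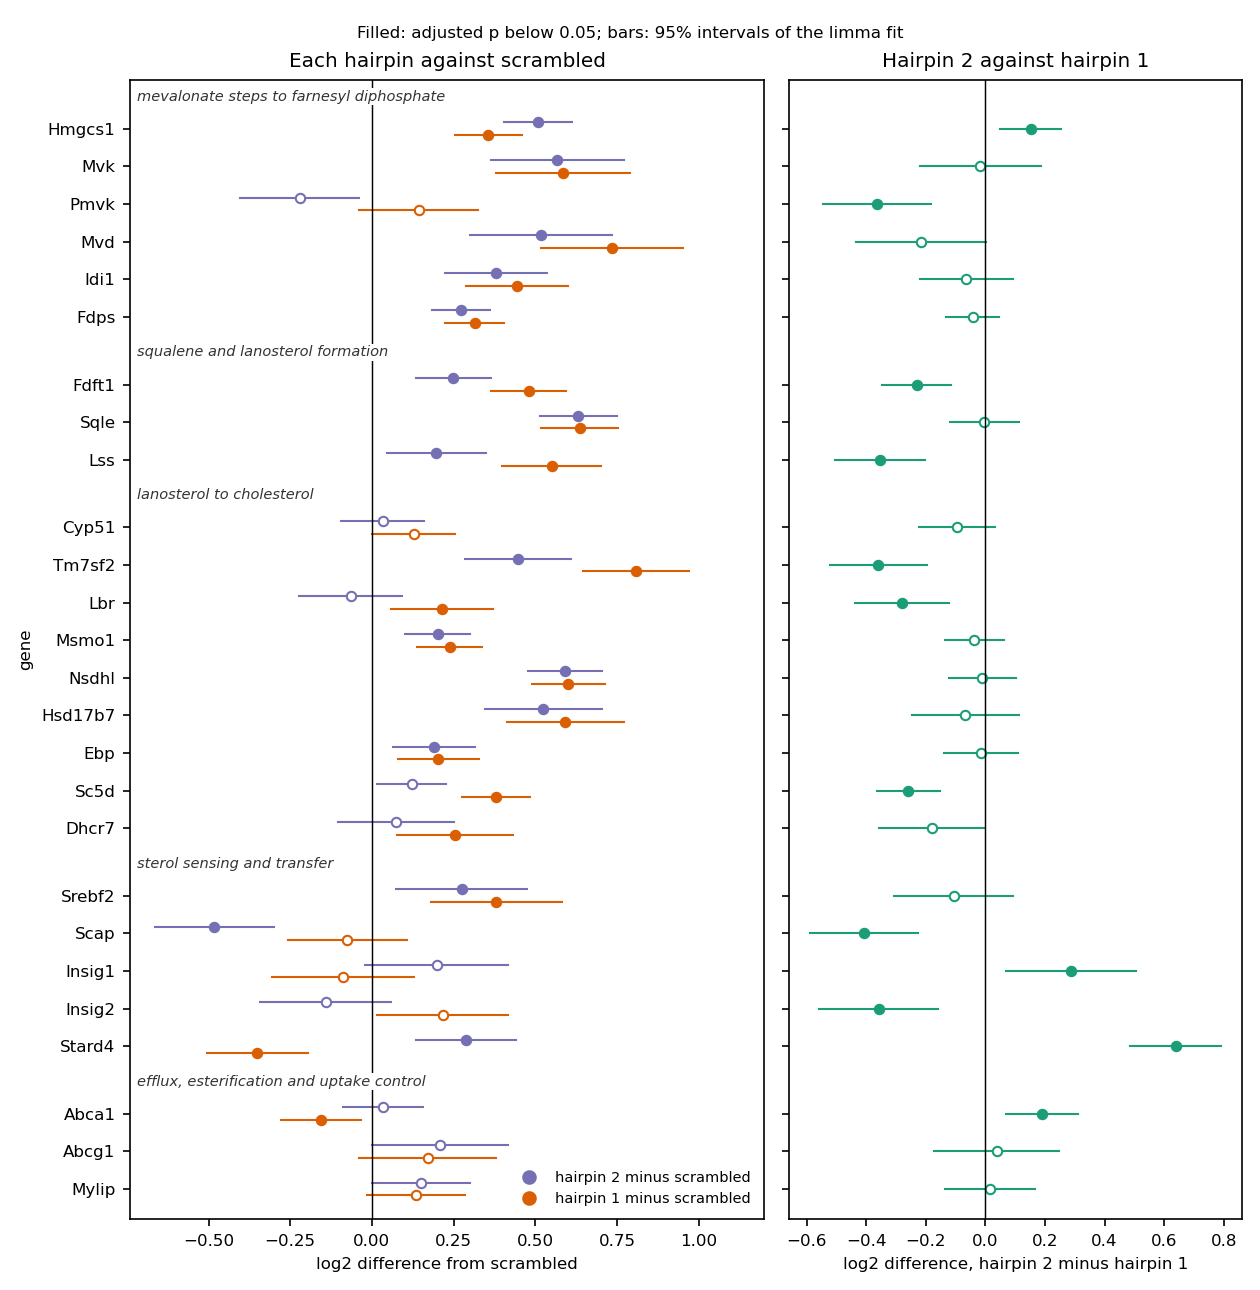
Difference of each member's mean from scrambled in log2 units for hairpin 2 and hairpin 1, ordered by role, and, in the right panel, hairpin 2 minus hairpin 1; bars are the 95% confidence intervals of the linear model over 9 arrays, and filled points passed an adjusted p of 0.05. The enzymes lie mostly right of 0 in the left panel, Scap with hairpin 2 and Stard4 with hairpin 1 lie left of it, and Stard4 stands farthest right in the right panel.

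The sensing and transfer genes did not move as a block. Of 5 measured, hairpin 2 gave 2 higher and 1 lower, and hairpin 1 gave 1 higher and 1 lower, with medians of 0.20 and -0.08 log2 units. Srebf2, which encodes SREBP-2 and is itself one of its targets, rose by 0.27 with hairpin 2 (adjusted p = 0.033) and 0.38 with hairpin 1 (adjusted p = 0.00556). The hairpin 2 call was lost without its second or the third repeat or any 1 scrambled array (adjusted p = 0.0524 to 0.117). On its other tested probe set Srebf2 rose by 0.30 and 0.28.

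Scap, the escort of SREBP-2, read 10.37, 10.45 and 10.37 with hairpin 2 and 10.62, 10.94 and 10.85 with hairpin 1, against 10.83, 10.85 and 10.96 with scrambled. The hairpin 2 arrays lay below all the others, and the hairpin 1 arrays overlapped the scrambled ones. Scap fell with hairpin 2 by 0.48 log2 units (SE 0.0858, adjusted p = 0.000333), and its difference with hairpin 1 was -0.08 (adjusted p = 0.543). Averaging all its probe sets, of which the other averaged 5.53 and did not pass the filter, gave -0.16 with hairpin 2 (adjusted p = 0.0628).

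Insig1, an SREBP-2 target that retains the Scap complex, read 13.08, 13.07 and 13.02 with hairpin 2 and 13.04, 12.47 and 12.79 with hairpin 1, against 12.78, 13.02 and 12.78 with scrambled. The hairpin 2 arrays were high and close together, and the hairpin 1 arrays were widely spread. Differences of 0.20 with hairpin 2 (adjusted p = 0.159) and -0.09 with hairpin 1 (adjusted p = 0.554) missed the threshold. Without the second repeat of hairpin 1 the first of these passed it (0.20, adjusted p = 0.0459), and without the first repeat of hairpin 1 the second did (-0.23, adjusted p = 0.0451).

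Insig2, its relative, read 10.74, 10.40 and 10.79 with hairpin 2 and 10.91, 11.07 and 11.03 with hairpin 1, against 10.75, 10.79 and 10.82 with scrambled. The hairpin 1 arrays stood above the other groups and the hairpin 2 arrays reached lower than scrambled. Differences of -0.14 with hairpin 2 (adjusted p = 0.284) and 0.22 with hairpin 1 (adjusted p = 0.0925) missed the threshold, and the second passed it without the first repeat of hairpin 1 or the second of hairpin 2 (adjusted p = 0.0325 to 0.0413). Its other probe sets went other ways, with 0.08 and 0.31 for hairpin 2 and -0.31 and 0.23 for hairpin 1.

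Stard4, a START-domain protein that carries sterol between membranes, was the member that was called in opposite directions. It read 10.73, 10.68 and 10.73 with hairpin 2 (10.71 ± 0.0292, SD, n = 3) and 10.10, 10.06 and 10.06 with hairpin 1 (10.08 ± 0.0221), against 10.40, 10.49 and 10.39 with scrambled (10.43 ± 0.0582). Its arrays agreed closely within each group, and scrambled lay between the hairpins with no overlap. Stard4 rose 1.22-fold with hairpin 2 (0.29, adjusted p = 0.00532) and fell 1.28-fold with hairpin 1 (-0.35, SE 0.0724, adjusted p = 0.00154). With the mean of its probe sets the fall with hairpin 1 was not called (-0.20, adjusted p = 0.0739). Its other tested probe sets had the same signs, but neither was called against scrambled. With p adjusted over the probe sets tested, they gave 0.37 and 0.16 with hairpin 2 (adjusted p = 0.0627 and 0.213). With hairpin 1 they gave -0.06 and -0.20 (adjusted p = 0.801 and 0.114).

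**Figure D3:**
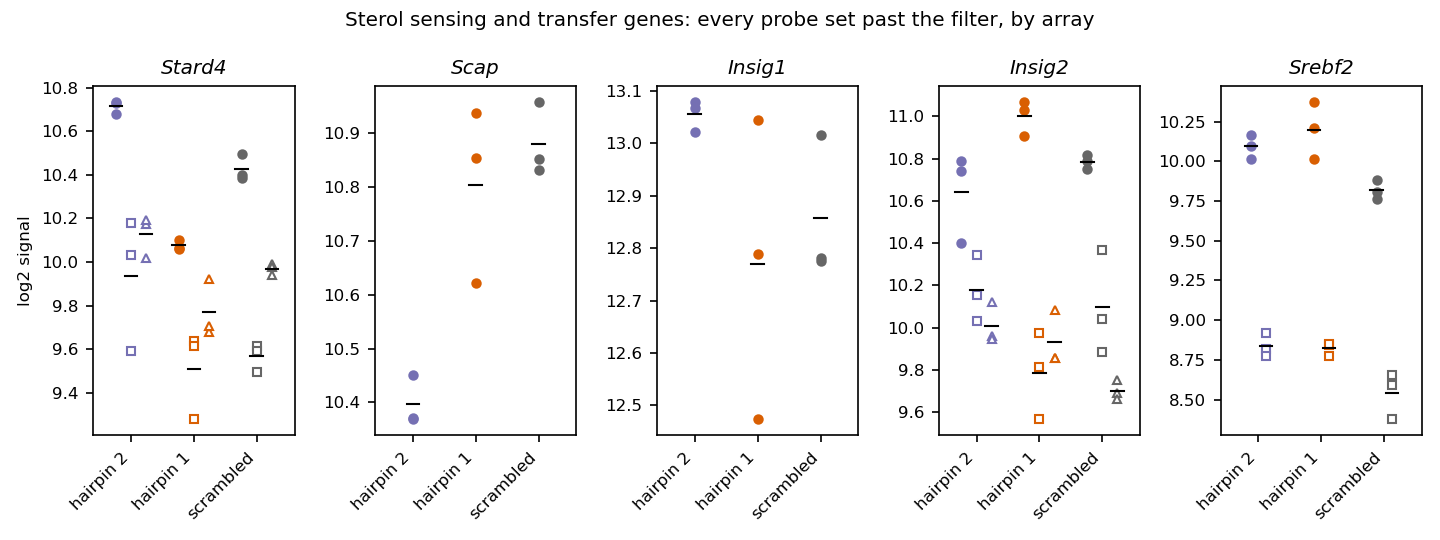
Signal on each array in log2 units for every tested probe set of the sensing and transfer genes, with hairpin 2, hairpin 1 and scrambled along the horizontal axis; filled circles are the probe set used for the gene, open squares and triangles its other probe sets, and dashes the means of 3 arrays. Hairpin 2 averages above hairpin 1 on all 3 Stard4 probe sets, while the 3 Insig2 probe sets differ in the order of the groups.

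The genes of cholesterol export and uptake control were flat or small in their differences. Of 3 measured, 0 were called with hairpin 2, whose unadjusted p-values were 0.0508 for Abcg1 and 0.05 for Mylip, and 1 fell with hairpin 1. Abca1, which loads cholesterol onto apolipoprotein A-I, read 13.34, 13.35 and 13.41 with hairpin 2 and 13.34, 13.12 and 13.07 with hairpin 1, against 13.32, 13.35 and 13.33 with scrambled. Only the second and the third repeats of hairpin 1 lay below the other arrays. The hairpin 1 difference of -0.16 (adjusted p = 0.0468) was lost without any 1 array other than the first repeat of hairpin 1 (adjusted p = 0.0551 to 0.226). It was -0.10 without the third repeat of hairpin 1 and -0.24 without the first, while that of hairpin 2 was 0.03 (adjusted p = 0.711). With the mean of its probe sets the hairpin 1 difference was 0.12 (adjusted p = 0.239), and the call was also lost with no filter, no variance trend or a fit of the 2 groups (adjusted p = 0.0677, 0.153 and 0.0803).

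Abcg1, which passes cholesterol to high-density lipoprotein, read 10.70, 10.92 and 10.64 with hairpin 2 and 10.61, 10.92 and 10.61 with hairpin 1, against 10.47, 10.61 and 10.56 with scrambled. All hairpin arrays lay above the highest scrambled array, in places by very little, and the mean differed 0.21 with hairpin 2 (adjusted p = 0.12) and 0.17 with hairpin 1 (adjusted p = 0.205). Mylip, a ubiquitin ligase that marks lipoprotein receptors for breakdown, differed by 0.15 with hairpin 2 (adjusted p = 0.118) and 0.13 with hairpin 1 (adjusted p = 0.164, or 0.0365 without the third repeat of hairpin 1). None of these 3 LXR targets was called with both hairpins.

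The hairpins were also set against each other, since Ebf1 was lower with hairpin 2 on 3 of its 4 tested probe sets. Of 26 members, 4 were higher and 8 lower with hairpin 2 than with hairpin 1, where 11.6% of all genes tested were higher and 17.4% lower. The median member difference was -0.07 log2 units, beside -0.04 over all genes. The 8 lower members were Pmvk, Fdft1, Lss, Tm7sf2, Lbr, Sc5d, Scap and Insig2, and the 4 higher ones Hmgcs1, Insig1, Stard4 and Abca1. The count of higher members was 1 without the second or the third repeat of hairpin 1 or the third of hairpin 2, and 2 without the first of hairpin 2. The median was -0.04 without the third repeat of hairpin 1 or the first of hairpin 2.

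Of the 8 lower calls, 5 fell on steps after farnesyl diphosphate. These were 2 of the 3 tested genes of squalene and lanosterol formation and 3 of the 9 from lanosterol to cholesterol. The rest were 1 of 6 tested mevalonate genes and 2 of 5 sensing and transfer genes, where 17.4% of all genes tested were lower. Hairpin 2 minus hairpin 1 was -0.35 log2 units for Lss (adjusted p = 0.00147), Tm7sf2 differed by -0.36 (adjusted p = 0.00216) and Fdft1 by -0.23 (adjusted p = 0.00439). Sc5d differed by -0.26 (adjusted p = 0.000962) and Lbr by -0.28 (adjusted p = 0.00948). In each of these 5 the 3 hairpin 2 arrays all lay below the 3 hairpin 1 arrays. With the mean of all probe sets the calls of Lss, Fdft1 and Sc5d were lost (adjusted p = 0.286, 0.215 and 0.0568). For Fdft1 that mean takes in probe sets averaging 5.64 and 5.62, below the filter. Its other tested probe set gave -0.30 (adjusted p = 0.0275 over the probe sets tested). Pmvk in the mevalonate stretch differed by -0.36 (adjusted p = 0.00446).

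For other enzymes the gap between the hairpins was small or missed the threshold. For Sqle the difference between hairpin 2 and hairpin 1 was -0.00 with a 95% confidence interval of -0.12 to 0.11, and for Nsdhl it was -0.01 (adjusted p = 0.916). Mvk differed by -0.02 (adjusted p = 0.923) and Mvd by -0.22 (adjusted p = 0.132), and Mvd passed the threshold with the first hairpin 1 array left out (adjusted p = 0.00752). Hmgcs1 was higher with hairpin 2 by 0.15 (adjusted p = 0.0273), a call lost without the second or the third repeat of hairpin 1 or the first or the third of hairpin 2 (adjusted p = 0.0544 to 0.127) or without the variance trend (adjusted p = 0.146).

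Among the sensing genes Stard4 showed the widest gap, 1.56-fold higher with hairpin 2 (0.64, 95% confidence interval 0.48 to 0.79, adjusted p = 7.8e-06). Its other probe sets gave 0.42 (adjusted p = 0.042) and 0.36 (adjusted p = 0.01), adjusted over probe sets. Scap and Insig2 were lower with hairpin 2, with differences of -0.41 (adjusted p = 0.00204) and -0.36 (adjusted p = 0.00945). Averaged over its probe sets, Scap differed by -0.17 and was not called (adjusted p = 0.0599). Without the second repeat of hairpin 2 the Insig2 difference was -0.24, and its sign turned with the probe set, since another gave 0.39 (adjusted p = 0.049) and the mean of all gave 0.04 (adjusted p = 0.796).

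Insig1 and Abca1 were higher with hairpin 2 by 0.29 (adjusted p = 0.0472) and 0.19 (adjusted p = 0.0201). The Insig1 call was lost on leaving out any 1 array other than the first repeat of hairpin 1 or the second of scrambled (adjusted p = 0.0537 to 0.251), and the difference was 0.14 without the second repeat of hairpin 1. It was lost as well with no filter, equal array medians, the mean of probe sets or no variance trend (adjusted p = 0.0642 to 0.108). The Abca1 call was lost without the second or the third repeat of hairpin 1 or the third of hairpin 2 (adjusted p = 0.0799 to 0.11) or without the variance trend (adjusted p = 0.0937), and the difference turned to -0.23 with the mean of its probe sets (adjusted p = 0.0326). The other tested Abca1 probe sets were both lower with hairpin 2, at -0.64 and -0.25. Adjusted over the probe sets tested, the first of these was called (adjusted p = 0.00233) and the second was not (adjusted p = 0.114). Abcg1 and Mylip differed by 0.04 (95% confidence interval -0.17 to 0.25) and 0.02 (-0.13 to 0.17).

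Probe sets were compared because 15 members had more than 1 that passed the filter. Over the 51 tested member probe sets, 25 were higher and 1 lower with hairpin 2, and 25 were higher and 1 lower with hairpin 1, with p-values adjusted over 27254 probe sets. The share called among all those probe sets was not counted, so these counts have no background to be read against. Every probe set of a gene had the same sign for 11 of the 15 members with hairpin 2 and 8 of 15 with hairpin 1. Both signs were seen with hairpin 2 for Abca1, Insig2, Msmo1 and Sc5d, and with hairpin 1 for Abca1, Abcg1, Cyp51, Hmgcs1, Idi1, Insig2 and Lss.

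**Figure D4:**
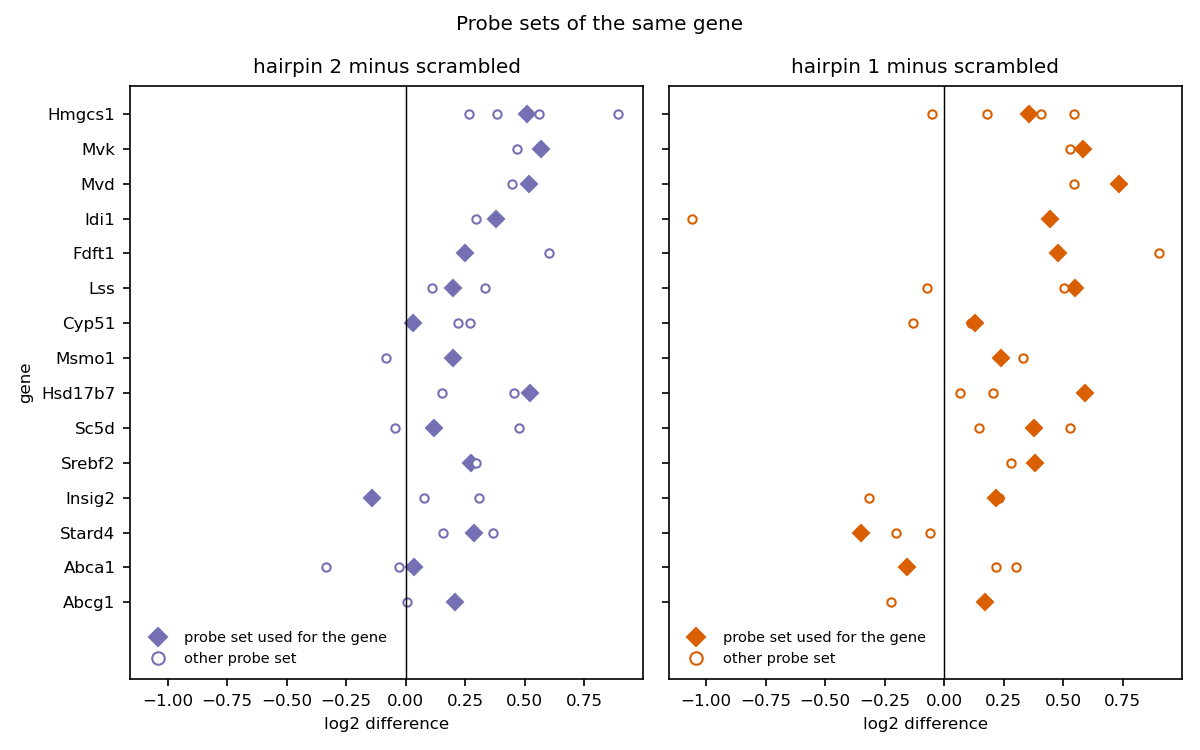
Difference from scrambled in log2 units for every tested probe set of the 15 members with more than 1, with hairpin 2 on the left and hairpin 1 on the right; filled diamonds are the probe set used for the gene and open circles the others. The probe sets of Idi1 and Abca1 fall on both sides of 0 with hairpin 1.

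Other genes of the pathway were counted in 3 lists, beside all-gene shares of 21.5% higher and 13.3% lower with hairpin 2 and 23.7% higher and 9.23% lower with hairpin 1. In the isoprenoid branch, which diverts mevalonate products into ubiquinone, dolichol and prenylated proteins, hairpin 2 gave 3 higher and 5 lower of 14 tested genes, and hairpin 1 gave 8 higher and 1 lower. Nus1, a subunit of the dolichol-forming prenyltransferase, fell by 1.37 on the log2 scale with hairpin 2 (adjusted p = 1.78e-09) and rose by 0.33 with hairpin 1 (adjusted p = 0.00529). Coq2 of ubiquinone synthesis fell with both, the differences being -0.72 (adjusted p = 4.22e-07) and -0.20 (adjusted p = 0.0318). The prenyltransferase subunits Fnta and Rabggta rose with both, Fnta by 0.45 and 0.37 and Rabggta by 0.59 and 0.39.

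Among the SREBP processing and degradation genes, hairpin 2 gave 4 higher and 5 lower of 11, and hairpin 1 gave 3 higher and 3 lower. Srebf1, which encodes the SREBP of fatty acid synthesis, fell with both, the differences being -0.41 (adjusted p = 8.7e-05) and -0.38 (adjusted p = 0.000246), while Srebf2 rose with both. Mbtps1, the protease that makes the first cut in SREBP, rose by 0.27 with hairpin 2 and 0.33 with hairpin 1. Rnf145, a ubiquitin ligase of the endoplasmic reticulum, rose by 0.53 and 0.32, and Erlin1, which binds cholesterol there, by 0.28 and 0.52.

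Of 24 tested genes of sterol trafficking, oxysterols and LXR, hairpin 2 gave 7 higher and 6 lower, and hairpin 1 gave 4 higher and 3 lower. Nceh1, a neutral cholesterol ester hydrolase, was up 1.41 log2 units under hairpin 2 (adjusted p = 3e-09) and 0.41 under hairpin 1 (adjusted p = 0.00178). Gramd1b, which moves plasma membrane cholesterol to the endoplasmic reticulum, fell by 0.89 with hairpin 2 (adjusted p = 4.98e-07), and its hairpin 1 difference was -0.13 (adjusted p = 0.269). Npc2, the lysosomal cholesterol carrier, fell by 0.30 with hairpin 2 and 0.20 with hairpin 1, and Osbpl9, an oxysterol-binding protein relative, fell by 0.44 and 0.32. The medians of the isoprenoid, processing and trafficking lists were -0.03, 0.06 and 0.08 with hairpin 2 and 0.33, -0.01 and 0.00 with hairpin 1, beside the all-gene medians of 0.02 and 0.07.

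Within groups the members varied little. The median standard deviation of a member over the 3 arrays of a group was 0.0752 log2 units with hairpin 2 and 0.103 with hairpin 1, against 0.0495 with scrambled, and over all genes tested it was 0.0929, 0.118 and 0.066. Array medians lay between 6.31 and 6.38, correlations between arrays were 0.994 to 0.998 within groups and 0.974 to 0.989 between them, and no arrays were identical. The number of arrays limits the precision.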

How the data were processed

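The deposited values are log2 probe set signals made by the authors; the submitters' processing notes name RMA without a version. RNA was amplified with a NuGEN pico-input whole-transcriptome kit before labelling, per the labels' protocols. Of 45101 probe sets, 64 are controls, 34945 name a single gene symbol, 932 several and 9160 none. The probe set with the highest mean represented its gene, and genes below the 30th percentile of gene means (5.72) were left out. A model of the 3 groups over all 9 arrays was fitted with limma 3.58.1 in R 4.3.3 (lmFit, eBayes with trend) and adjusted by Benjamini-Hochberg over 12735 genes; tests are two-sided. Fits were tested on simulated data. Fold changes are antilogs of log2 differences and are compressed near the array's floor and ceiling, and RMA removes shifts shared by all probe sets. The named genes were the members, with array values for those called between the hairpins and the 4 highest and 4 lowest means of both differences and for the highest level in each role, and per other list the 4 with the smallest p. Members and lists were chosen with earlier results of these data known. Alternatives were other filters, scalings, probe set rules, array weights, a fit of 2 groups, a replicate block and leaving out each array. Same-numbered arrays did not vary together in every pair, so the block was not used in the results above.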

Additional observations from a re-analysis of the deposited data

Results flagged for a closer look

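The 12 members below differed between the hairpins by a direct test (adjusted p below 0.05 over 12735 genes), and chance calls are expected among so many genes. With hairpin 2 the signal was higher than with hairpin 1 by 0.64 log2 units for Stard4, 0.29 for Insig1, 0.19 for Abca1 and 0.15 for Hmgcs1. It was lower for the others, with differences of -0.41 for Scap, -0.36 for Pmvk, -0.36 for Tm7sf2, -0.36 for Insig2, -0.35 for Lss, -0.28 for Lbr, -0.26 for Sc5d and -0.23 for Fdft1. Abca1 had the opposite sign on its other tested probe sets, at -0.64 and -0.25. Ebf1 itself was lower with hairpin 2, by a difference of -0.50, on the probe set used, and the part of that in these differences was not tested. The preadipocyte and fibroblast marker list, 7 of 9 higher and 1 lower with hairpin 2 than with hairpin 1, and the list of dividing cells, 4 of 9 lower, moved in the same comparison, and their part was not tested either.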

How the results depend on the processing

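Of the calls above, 9 of 16 with hairpin 2 (Fdft1, Hmgcs1, Hsd17b7, Mvd, Mvk, Nsdhl, Sqle, Stard4 and Tm7sf2), 12 of 19 with hairpin 1 (these without Stard4, and Fdps, Lss, Sc5d and Srebf2) and 4 of 12 between the hairpins (Lbr, Pmvk, Stard4 and Tm7sf2) held under all 18 alternatives. Members called higher ranged from 12 to 18 with hairpin 2 and 13 to 19 with hairpin 1. With the mean of all probe sets, Idi1 with hairpin 1 was -0.31, Abca1 with hairpin 1 was 0.12, and between the hairpins Insig2 was 0.036 and Abca1 -0.23. Members lower with hairpin 2 were 2 after quantile normalization, with equal array medians, with array weights or with a fit of the 2 groups, 0 with the mean of probe sets, and 1 to 2 without 1 array. Members lower with hairpin 1 were 1 with no filter, without the variance trend or with the 2 groups alone, 0 with the mean of probe sets, and 1 to 3 without 1 array, and equal array medians gave a median of 0.20. Between the hairpins, members higher were 2 with the mean of probe sets, 1 without the trend and 1 to 4 without 1 array, and members lower were 5 with the mean of probe sets. Array weights called 5238 genes higher and 2222 lower with hairpin 1, against 3023 and 1176, and 3812 lower between the hairpins, against 2219. The causes were not tested. For the pairing check, deviations of same-numbered arrays correlated at -0.293 to 0.25 over 9 pairs, 3 of them over 0.1. With 3 arrays a group, these values do not settle whether the numbers pair samples. A replicate block gave 16 members higher with hairpin 2 and 17 with hairpin 1, and 4 higher and 8 lower between the hairpins; it changed 1 of 78 member calls (Sc5d with hairpin 2). Members with signal near the top of the range, such as Hmgcs1 and Msmo1, may be compressed.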
